A study of Homo sapiens with 5 samples.

Results

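A set of 41 genes was transcribed at a level at least 4-fold higher in HEK293T cells with the PGK promoter than in HEK293T cells with the CAG promoter. They were chosen from the deposited PRO-seq counts by 2 limits. The mean level in the PGK line had to be at least 5 CPM (a gene's count divided by all counts of its library, times 1000000), and the ratio of the line means, each with 0.5 CPM added, had to be at least 4. Of 20001 genes in the table, 53 passed both limits. The rule left out 7 long stretches of rows, which held 10 of the 53, and 2 further genes by identifier, which gave the 41. The contrast between the lines chose these genes, so its size in them is given as a description with no test. With the lines exchanged and the same exclusions, the rule found 49 genes in the opposite direction.

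The samples were 5 libraries of HEK293T, an established line derived from human embryonic kidney in which the SV40 large T antigen is expressed. The labels describe monoclonal cells whose landing pad, an engineered genomic site for inserting DNA, holds the PGK promoter in 2 libraries and the CAG promoter in 3. No treatment is given, and both groups share the cell line, the landing pad and the culture medium. RNA-seq of the same cells, planned in the series for estimates of RNA stability, was not used here. How many clones each promoter represents, and whether replicates were separate cultures, is not stated in the labels. The effect of a promoter and of a clone therefore cannot be told apart, and each p-value reflects only how these libraries vary, possibly for technical reasons alone. None of the 5 libraries came from HEK293T cells without either promoter. A loss in the CAG line and a gain in the PGK line thus cannot be told apart.

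PRO-seq captures RNA that engaged polymerases extend with a biotin-labelled nucleotide in isolated nuclei or permeabilised cells, so its counts report transcription in progress and not the stored RNA. The PGK promoter comes from the phosphoglycerate kinase gene of glycolysis and is active in most cell types. The CAG promoter joins the cytomegalovirus enhancer to the chicken beta-actin promoter and is a strong promoter for transgenes. A monoclonal line grows from a single cell, and clones of a line with an unstable genome such as HEK293T can carry different gene copy numbers and different silenced genes.

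The table lists genes by Ensembl identifier with no names, and the reference table used here held 0 rows with an Ensembl identifier. The genes are therefore numbered from 1 to 41 in falling order of their ratio and located by their row in the deposited table. Their functions, the lists of gene families and the markers of HEK293T and other cell types were not analysed here, and no promoter sequence could be matched. Library totals ran from 3712118 counts in PGK replicate 2 to 5864178 in CAG replicate 3, so a single count was worth 0.269 CPM in the shallowest library and 0.171 CPM in the deepest. All 41 genes passed edgeR's filter on low counts and were among the 13400 genes tested.

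In the PGK line, the 41 genes spanned low to high levels, and in the CAG line most of them were near the bottom of the tested genes. Their PGK mean ran from 5.34 to 239 CPM with a median of 21.2, against a median of 46.2 CPM for all tested genes. Their CAG mean ran from 0.194 to 37.0 CPM with a median of 2.06, against 47.2 CPM for all tested genes. The median gene of the set stood at the 30.9th percentile of tested genes in the PGK line and at the 1.65th percentile in the CAG line. The median ratio was 7.35, or 2.88 on the log2 scale, where the median over all tested genes was -0.03. Summed over the 41 genes, the level was 1717 and 1797 CPM in the PGK libraries against 204, 194 and 210 CPM in the CAG libraries. Of the 41 ratios, 25 lay between 4 and 8, 9 between 8 and 16, and 7 at 16 or more.

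**Figure D1:**
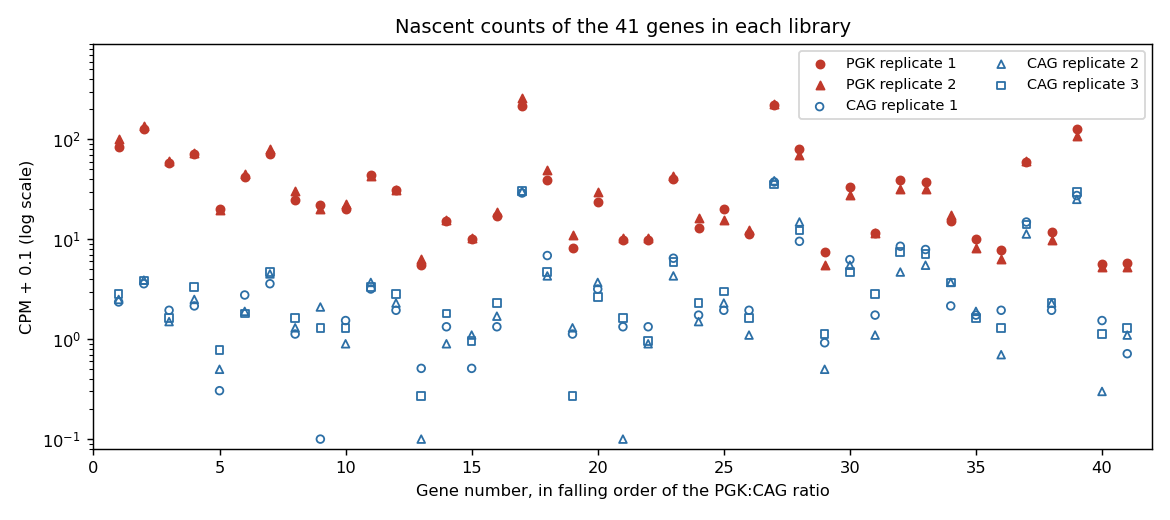
Level of each of the 41 genes in each library, as CPM plus 0.1 on a log scale, with genes in falling order of the PGK:CAG ratio. Filled red symbols are the 2 PGK libraries and open blue symbols the 3 CAG libraries, and in every gene both red symbols lie above all 3 blue ones.

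All 41 genes had both PGK libraries above all 3 CAG libraries, which was true of 27.4% of all tested genes. The lowest PGK library exceeded the highest CAG library by 3.36-fold to 33.0-fold, with a median of 6.34-fold, and by at least 4-fold in 36 genes. edgeR's quasi-likelihood test called all 41 lower in the CAG line at a Benjamini-Hochberg adjusted p under 0.05, beside 20.7% of all tested genes called in that direction. The rule used the same contrast, so nothing is read from these counts.

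Counts were mostly low in the CAG line but not absent from it. No background level of stray reads was estimated, so whether the scarcest genes were transcribed there was not tested. No gene of the 41 had 0 counts in all 3 CAG libraries, and 3 genes had 0 counts in 1 of them. The CAG mean was under 1 CPM in 9 genes, from 1 to under 5 CPM in 22 and at least 5 CPM in 10. Expressed as a share of the PGK mean, the CAG mean ran from 2.17% in gene 5 to 23.3% in gene 39, with a median of 11.7%.

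By the ratio with 0.5 CPM added, the 4 highest values belonged to genes that were well transcribed in the PGK line. In the CAG line they stood at a few CPM. Gene 1, ENSG00000188641 in row 912, had 83.7 and 102 CPM in the PGK libraries against 2.26, 2.40 and 2.73 CPM in the CAG libraries. Gene 2, ENSG00000155966 in row 19820, had 125 and 136 CPM against 3.49, 3.80 and 3.75 CPM. From pooled counts, their ratios were 36.7 (exact 95% interval 26.6 to 52.0, counting error only) and 35.2 (27.0 to 46.6), so the order of the pair was not resolved by counting alone. In row 19455, gene 3 had 58.4 and 60.9 CPM in the PGK libraries against 1.85, 1.40 and 1.53 CPM in the CAG libraries. In row 8528, gene 4 had 71.5 and 73.0 CPM against 2.05, 2.40 and 3.24 CPM. In each of these 4 genes the CAG libraries lay within 1.2 CPM of each other, far below either PGK library.

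Gene 5, in row 14711, had the lowest CAG mean of the set as a share of its PGK mean. Its PGK counts were 111 and 73 and its CAG counts 1, 2 and 4, that is 19.8 ± 0.155 CPM (SD, n = 2) against 0.429 ± 0.240 CPM (SD, n = 3). The pooled ratio of 44.5 had a wide counting interval, 21.2 to 112, because it rested on 7 CAG counts. Without the added 0.5 CPM gene 5 therefore had the highest pooled ratio of the set, though its interval overlapped those of genes 1 to 4. Gene 6 (row 5548) had 41.6 and 44.7 CPM in the PGK libraries against 2.67, 1.80 and 1.71 CPM. In both genes the PGK libraries were again close together and far above every CAG library.

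Genes 7 to 12 had ratios between 16.2 and 11.5. Levels for gene 7 (row 16415) were 70.8 and 79.5 CPM in the PGK line and 3.49, 4.40 and 4.60 CPM in the CAG line. For gene 8 (row 4592) they were 24.5 and 30.2 CPM against 1.03, 1.20 and 1.53 CPM. For gene 9 (row 16409) the PGK counts were 121 and 74 and the CAG counts 0, 10 and 7. The 0 of gene 9 in CAG replicate 1 allows up to 0.616 CPM, below the 1.19 CPM of CAG replicate 3, which has counting error of its own. Whether the CAG libraries differed in gene 9 beyond counting error was not tested. Gene 10 (row 6629) had 20.1 and 22.4 CPM against 1.44, 0.799 and 1.19 CPM. Gene 11 (row 2232) had 43.7 and 43.1 CPM against 3.08, 3.60 and 3.24 CPM. For gene 12 (row 8270) both PGK libraries read 31.2 CPM, and the CAG counts were 9, 11 and 16. Among genes 7 to 12, the SD of the PGK pair was at most 6.16 CPM, in gene 7, which is small beside the difference between the lines.

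Genes 13 to 16 were scarcer, and their ratios depended more on few counts. Gene 13 (row 9160) had 30 and 23 PGK counts and 2, 0 and 1 CAG counts, so its pooled ratio of 29.9 had an interval from 9.70 to 150. With 0.5 CPM added to both means its ratio was 9.06, the value that ordered it. Gene 14 (row 801) had 84 and 57 counts against 6, 4 and 10. For scarce genes such as these, the added 0.5 CPM held the ratio down. Gene 15 (row 19219) had 55 and 38 PGK counts and 2, 5 and 5 CAG counts. For gene 16 (row 1577) the counts were 94 and 69 against 6, 8 and 13. Both stood at ratios just above 8.

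Some of the most transcribed genes of the set were also clearly transcribed in the CAG line. The highest was gene 17 (row 2943), with 216 and 262 CPM in the PGK libraries against 28.9, 30.0 and 30.5 CPM in the CAG libraries. Next came gene 27 (row 8547), with 219 and 228 CPM against 37.3, 38.4 and 35.3 CPM. In row 8548, gene 39 had 702 and 404 counts against 133, 125 and 174, or means of 117 and 27.3 CPM. These 3 genes rested on 432 to 581 pooled CAG counts, so counting error was small. Their pooled ratios were 7.84 (exact 95% interval 7.09 to 8.68), 6.03 (5.50 to 6.63) and 4.34 (3.88 to 4.86). The intervals leave out differences between libraries, such as the 216 and 262 CPM of gene 17 in the PGK pair. Gene 28 (row 11042) and gene 37 (row 16189), also above 50 CPM, were of the same kind. The levels of gene 28 were 79.2 and 69.2 CPM against 9.44, 14.8 and 12.1 CPM. The counts of gene 37 were 327 and 224 against 72, 56 and 82. The 10 genes with a PGK mean of at least 50 CPM thus spread from the largest ratio of the set, 31.5, down to 4.24. A high level in the PGK line therefore did not fix the ratio to the CAG line.

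**Figure D2:**
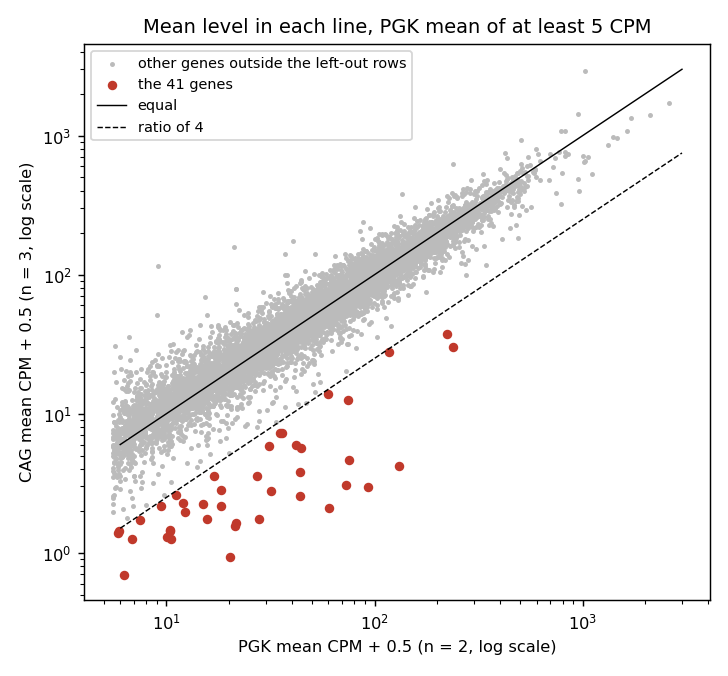
Mean level in the CAG line (n = 3) against the PGK line (n = 2), each plus 0.5 CPM on a log scale, for the 9688 genes with a PGK mean of at least 5 CPM outside the left-out rows. The solid line marks equal levels and the dashed line the ratio of 4 that chose the 41 genes in red, which are 0.423% of the genes shown.

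Genes 18 to 26 had ratios from 7.80 down to 6.25 and PGK means between 9.55 and 43.9 CPM. Gene 18 (row 5205) had 39.1 and 48.8 CPM in the PGK libraries against 6.77, 4.20 and 4.60 CPM in the CAG libraries. Gene 20 (row 13767) had 23.6 and 29.6 CPM against 3.08, 3.60 and 2.56 CPM. Within the PGK line gene 19 (row 19746) was the least even of the set in the direction of replicate 2, with a log2 ratio of replicate 1 to replicate 2 of -0.43. Genes 21 to 26, in rows 512, 7146, 14884, 8478, 2329 and 2848, had pooled ratios from 7.56 to 10.4. Gene 21 was another gene with a 0 in the CAG line, with 6, 0 and 9 counts there.

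The remaining genes lay closer to the limit of 4. Gene 29 (row 943) had 41 and 20 PGK counts and 4, 2 and 6 CAG counts. Gene 30 (row 9311) had 33.5 and 27.5 CPM against 6.16, 5.40 and 4.60 CPM. Gene 31 (row 8760) had 11.5 and 11.6 CPM against 1.64, 0.999 and 2.73 CPM. Genes 32 (row 9973) and 33 (row 8927) resembled each other in both lines. The levels of gene 32 were 39.1 and 31.8 CPM against 8.41, 4.60 and 7.33 CPM. Those of gene 33 were 37.6 and 31.5 CPM against 7.80, 5.40 and 6.99 CPM. Gene 34 (row 2108), gene 35 (row 7713), gene 36 (row 7466) and gene 38 (row 12799) had ratios between 4.72 and 4.32. Gene 35 had 55 and 30 counts against 8, 9 and 9, and gene 36 had 43 and 23 counts against 9, 3 and 7. For 33 of the 41 genes the lower limit of the counting interval of the pooled ratio was at least 4. The lowest such limit in the set was 3.19, in gene 41. The rule chose these genes by a ratio of at least 4 in the same counts, so nothing is read from the 33. Unlike the ratio of the rule, the pooled ratio has no 0.5 CPM added.

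The genes on either side of the limits differed little. Just inside the ratio of 4 were gene 41 (row 19844) at 4.13, gene 40 (row 11236) at 4.21 and gene 39 at 4.24. Just outside it were the genes in rows 5210, 5329 and 9310, with ratios of 3.93, 3.86 and 3.86. Gene 40 had 31 and 19 PGK counts and 7, 1 and 6 CAG counts, and gene 41 had 32 and 19 against 3, 5 and 7. At the other limit, genes 40, 41 and 13 had PGK means of 5.34, 5.43 and 5.79 CPM. The genes in rows 16411, 7436 and 11557 passed the ratio but had PGK means of 4.89, 4.62 and 3.36 CPM.

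Each library was also read for genes that the other 4 had chosen by the same rule. Without PGK replicate 1 the rule chose 40 genes, and PGK replicate 1 lay above all 3 CAG libraries in 40 of them, beside 41.8% of tested genes outside the left-out rows. Its ratio to the CAG mean was at least 4 in 36, and the lowest was 1.22. Without PGK replicate 2 it chose 45 genes, and PGK replicate 2 lay above the CAG libraries in 45 (background 35.1%), with a ratio of at least 4 in 37. The ratio of the left-out library was thus under 4 in 4 and 8 of the genes chosen without it. These genes were chosen by low values in the same CAG libraries that the left-out library is set against, so the background share is no measure of what the choice alone would give, and the side is a description only.

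**Figure D3:**
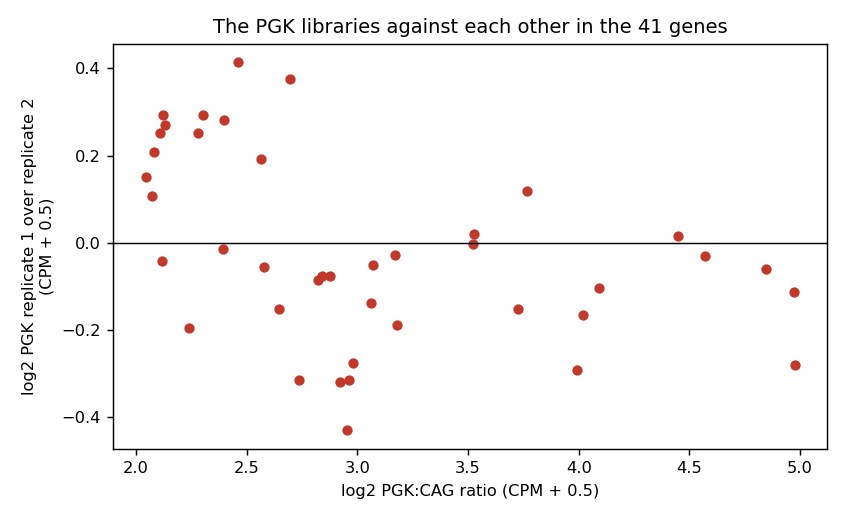
log2 ratio of PGK replicate 1 to PGK replicate 2 against the log2 PGK:CAG ratio, both from CPM plus 0.5, for the 41 genes. Points above the line at 0 had more signal in replicate 1: 12 of the 25 genes with a ratio of 4 to under 8 and 3 of the 16 with a ratio of at least 8.

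Without CAG replicate 1, 2 or 3 the rule chose 43, 41 and 42 genes. The left-out CAG library lay below both PGK libraries in all of these, where 38.1%, 38.4% and 39.6% of tested genes outside the left-out rows did so. The ratio of the PGK mean to the left-out CAG library, each with 0.5 CPM added, was at least 4 in 37 of 43, 38 of 41 and 37 of 42 genes, and the choice shares the PGK libraries here in the same way. Of the 41 genes, 35 were chosen by the rule without each library in turn, and the 6 that were lost at least once all came from genes 35 to 41.

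Within the PGK line, the replicates of the 41 genes were close. The SD of the pair was 8.01% of the mean at the median gene, and the largest was 22.1%. The log2 ratio of replicate 1 to replicate 2 had a median of -0.05 and ran from -0.43 in gene 19 to 0.41 in gene 29. Replicate 1 was the higher in 15 of the 41 genes, beside 61.2% of all tested genes and 61.1% of the other 11851 tested genes with a PGK mean of at least 5 CPM, where the median log2 ratio was 0.06. With TMM-scaled libraries the median over the 41 genes was -0.12. There is 1 library on each side of this comparison, so it has no test.

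Replicate 2 was the higher mainly in the genes with the largest ratios. Among genes 1 to 16, whose ratio was at least 8, replicate 1 was higher in 3 (18.8%), and among the 25 genes with a ratio of 4 to under 8 it was higher in 12 (48.0%). A division after gene 24, placed after the values were seen, gave 3 of 24 and 12 of 17. For genes outside the set and the left-out rows, with a PGK mean of at least 5 CPM, replicate 1 was higher in 66.4% of 4565 genes with a ratio under 1 and in 54.3% of 4668 genes with a ratio of 1 to under 1.5. It was higher in 50.5% of 293 genes at 1.5 to under 2, in 48.5% of 101 genes at 2 to under 3 and in 11 of 20 genes at 3 to under 4, so the share showed no clear trend between 1.5 and 8. The part of library depth in this was not tested; PGK replicate 2 was the shallowest library.

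Within the CAG line the spread was wider in proportion, and the counts were smaller. The SD of the 3 libraries ran from 2.72% of the mean in gene 17 to 106% in gene 13. Chi-square per gene between pairs of CAG libraries was 0.851 to 1.46 over the 41 genes, where counting noise alone gives about 1, and 1.81 for the PGK pair. In the other genes of at least 5 CPM it was 1.71 to 1.94 and 4.80. The 41 genes were chosen partly for low CAG counts, with a median of 32 over the 3 libraries, where counting noise makes up more of the spread.

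The 41 genes were scattered through the table, from row 512 to row 19844, with a median of 164.5 tested rows between successive genes. What fixes the row order is not stated in the sources. Divided by row into 4 equal parts, the table held 11, 16, 6 and 8 of them, of 2186, 2711, 2821 and 1970 genes with a PGK mean of at least 5 CPM outside the left-out rows. Only 3 pairs of successive genes lay within 10 tested rows of each other.

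Those pairs made up 2 groups of rows. In the first, genes 4, 27 and 39 lay in rows 8528, 8547 and 8548, with genes 27 and 39 side by side. Row 8550, the second row after that pair, was lower in the CAG line at a log2 fold change of -1.26 with an edgeR adjusted p of 1.31e-13, and row 8544, the tested row before gene 27, was higher at 1.40 with 5 and 5 counts against 17, 16 and 13 (edgeR adjusted p = 0.0153). In row 8550 the PGK counts were 1006 and 638 and the CAG counts 347, 379 and 458, so it was well transcribed in both lines. Row 8527, the tested row before gene 4, stood at -1.16 (edgeR adjusted p = 9.10e-09). From row 8524 to row 8556, edgeR called 11 of the 15 tested genes outside the set lower in the CAG line and 2 higher. The shares called were 20.7% and 22.7% of all tested genes, and 19.6% and 16.7% of those outside the left-out rows, where this window lies. Most of the called genes in the window differed by far less than the 3 genes of the set. The lower calls ran on past this window. Every tested row from 8557 to 8565 was called lower, at log2 fold changes between -0.28 and -0.81. Before the window, rows 8520 and 8521 were called lower and row 8523 higher.

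In the second group, gene 9 in row 16409 and gene 7 in row 16415 had 3 tested rows between them. One of these, row 16411, had PGK counts of 29 and 17 and CAG counts of 3, 1 and 3, and missed the set only by its PGK mean of 4.89 CPM. Rows 16412 and 16413, the others, stood at log2 fold changes of -0.08 and -0.19, with edgeR adjusted p-values of 0.476 and 0.384. Of the 11 tested genes outside the set from row 16393 to row 16419, edgeR called 2 lower in the CAG line and 1 higher. The shares called were 20.7% and 22.7% of all tested genes, and 19.6% and 16.7% of those outside the left-out rows. Whether reads of overlapping genes were shared between rows is not given in the sources used here.

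**Figure D4:**
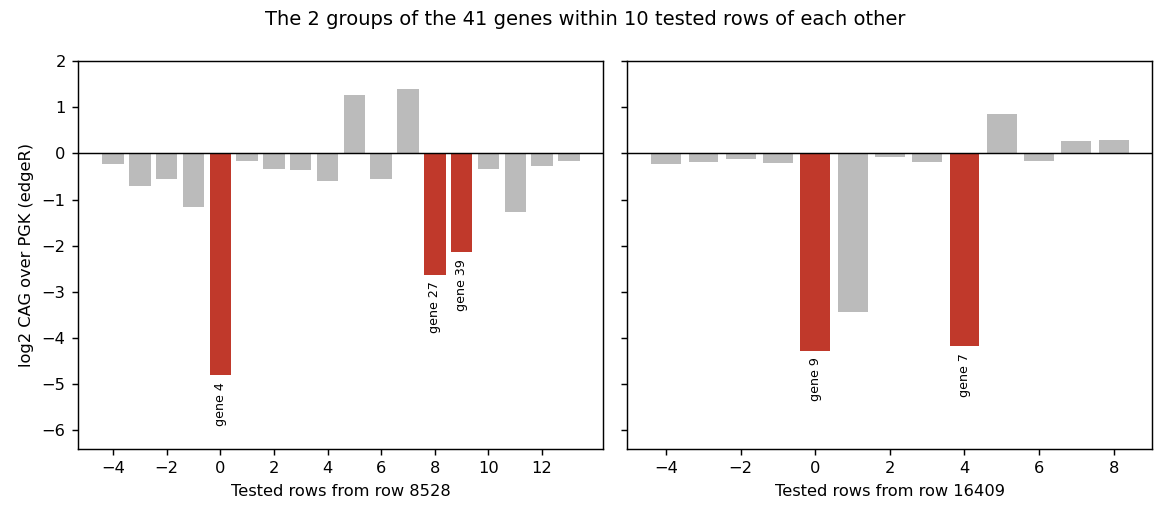
log2 fold change of CAG over PGK from edgeR for each tested row in the 2 groups, against the distance in tested rows from gene 4 (row 8528, left) and gene 9 (row 16409, right). Red bars are genes of the set and grey bars other genes; in the right panel the grey bar beside gene 9 is row 16411.

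Around the 41 genes as a whole, the 2 groups included, the neighbouring rows had a median near 0. Within 2 tested rows of a gene of the set lay 159 other genes, none in the left-out rows, with a median log2 fold change of -0.08, where tested genes outside the left-out rows had -0.03. edgeR called 45 of the 159 lower in the CAG line (28.3%) and 24 higher (15.1%), beside 20.7% and 22.7% of all tested genes and 19.6% and 16.7% of those outside the left-out rows. At a size of at least 2-fold, 13 were called lower (8.18%) and 8 higher (5.03%), beside 1.94% and 5.01% of all tested genes and 1.93% and 4.15% of those outside the left-out rows. Within 10 tested rows, 24 of 759 neighbours (3.16%) were called at least 2-fold lower and 43 (5.67%) higher. Around some genes the calls ran in a single direction. Every tested row from 9974 to 9979, after gene 32, was called lower in the CAG line. Every tested row from 12802 to 12812, after gene 38, was called higher. No test of these shares was made, and neighbours on the 2 sides of a gene are not independent.

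The fold change of each gene of the set was also set beside that of its neighbours. The rule chose genes with a large difference, and 1.93% of tested genes outside the left-out rows were called at least 2-fold lower. A lower fold change than the neighbours was thus nearly fixed in advance, and nothing is read from it. In 40 of 41 genes the fitted fold change was lower than that of every non-member within 2 tested rows. The exception was gene 32 (row 9973) at -2.42, whose neighbour in row 9975 stood at -2.49 with 22 and 18 counts against 2, 2 and 8. The median of the neighbours was below 0 for 29 of the 41 genes and at or under -1 for 0 of them. The median over tested genes outside the left-out rows was itself below 0, at -0.03. At least 1 neighbour was called lower for 26 genes, and at least 3 for 3 genes. Each gene had 3 or 4 such neighbours, and 19.6% of tested genes outside the left-out rows were called lower. No matching count was made around other genes, so nothing is read from these counts.

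A few direct neighbours were lower in the CAG line by 2-fold or more. Row 9310, before gene 30, had 109 and 72 counts against 23, 21 and 30 and stood at -2.07 on the log2 scale (edgeR adjusted p = 6.26e-09). Row 8926, before gene 33, stood at -1.69 with 272 and 193 counts against 76, 81 and 93 (edgeR adjusted p = 5.49e-11). Row 14710, before gene 5, stood at -1.68 with 75 and 40 counts against 21, 24 and 16 (edgeR adjusted p = 3.99e-06). Each of the 6 differed less between the lines than the gene beside it, and they were picked out by the size of their difference.

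The opposite direction was found next to gene 41, in row 19844. Row 19846, the next tested row, had 8 and 2 PGK counts and 177, 173 and 223 CAG counts, and its log2 fold change was 5.03 with an edgeR adjusted p of 4.10e-14. Row 19848, the tested row after that, had 0 counts in both PGK libraries, against CAG counts of 15, 14 and 20. Next to gene 15, row 19216 had 19 and 9 counts against 80, 86 and 75 and was higher in the CAG line by 2.32 on the log2 scale (edgeR adjusted p = 7.68e-08). Genes with large differences in both directions thus lay in adjoining tested rows.

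**Figure D5:**
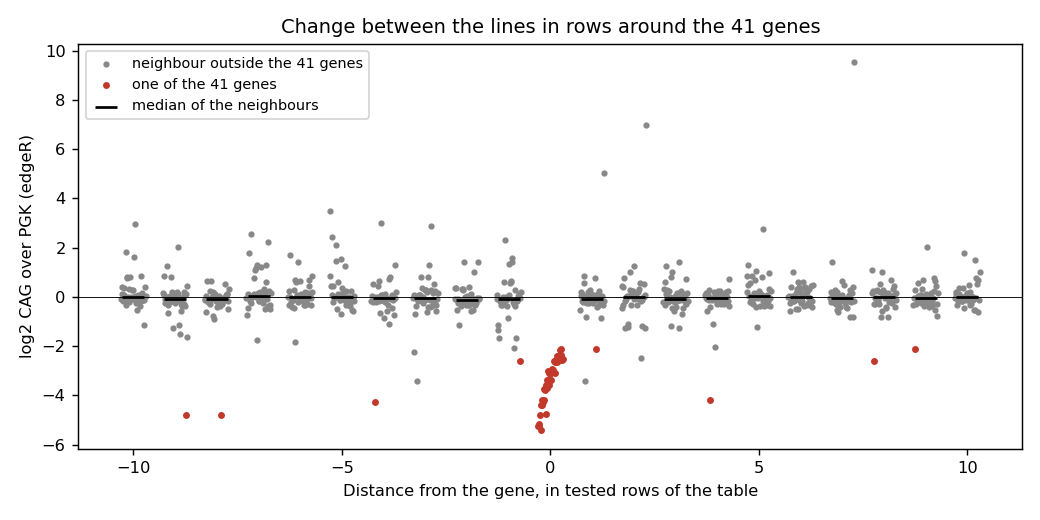
log2 fold change of CAG over PGK from edgeR for tested rows up to 10 away from each of the 41 genes. Grey points are genes outside the set, red points genes of the set, and black bars the median of the grey points at each distance, which lay between -0.11 and 0.04.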

How the data were processed

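PRO-seq libraries of HEK293T cells (2 PGK, 3 CAG) were compared. The authors deposited raw counts per Ensembl gene identifier, 1 column per library; 0 columns were unmatched. The tools were featureCounts 2.0.3, HISAT2 2.2.1, Bowtie2 2.5.1, UMI-tools, cutadapt and fastp 0.23.2, with build hg19, per the submitters' processing notes; their roles, the annotation and the strand setting are not stated there. CPM divided counts by the column sum. The 18 rows without an identifier (13 to 25 counts per library) stayed out of all tests. edgeR 4.0.16 (R 4.3.3) tested CAG against PGK by quasi-likelihood with filterByExpr (minimum count 10, total 15), TMM and Benjamini-Hochberg adjustment over 13400 genes, and was tested on simulated data. Exact 95% intervals came from SciPy 1.17.1 and cover counting error, as does the limit of 3 counts for a 0. Alternatives were DESeq2 1.42.0, limma-trend (limma 3.58.1), other scalings, offsets, limits, windows, a replicate block and leaving out each library. Genes given in full were the 15 largest ratios, the 10 highest PGK means, those beside a member or a called lower gene, and those at the limits; 9 others are summarised. Members and lists were chosen with earlier results of these data known.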

Additional observations from a re-analysis of the deposited data

How the results depend on the processing

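The set of 41 genes became 26 at a ratio of at least 6 and ran from 29 to 61 under the other settings of the rule. With 1 library left out it held 40 to 45 genes and the median log2 ratio ran from 2.75 to 3.09, highest without PGK replicate 1; an offset of 2 CPM gave 2.53 in place of 2.88, by construction. No single gene changed direction in 451 values under 11 alternatives, and 79 moved by more than the spread between library pairs, 46 of them under another offset and 33 when the lowest PGK library was set against the highest CAG library. In all 41 genes the lowest PGK library exceeded the highest CAG library by at least 3.36-fold. The lack of reversals was therefore fixed in advance. All 41 genes were called lower in the CAG line under each tool, scaling and left-out library. Of all tested genes, 10.7% (DESeq2) to 21.2% (without PGK replicate 1) were called lower, and 0.731% by glmTreat. The rule used the same contrast, so nothing is read from the 41 calls. Of the 13400 tested genes 5818 were called, and 254 by glmTreat against a log2 fold change of 1 (added after the data were seen), which tests a stricter hypothesis. DESeq2 called 3943 of 17286 genes, a wider set without the filter on low counts, so its count differs in more than the tool. Called neighbours numbered 69 within 2 tested rows, 36 within 1, 152 within 5 and 280 within 10, 46 by DESeq2 and 9 by glmTreat; without 1 library they numbered 57 to 72. With the replicate block, 41 genes of the set, 59 neighbours and 4667 tested genes were called. Deviations from the line means correlated at 0.04 and -0.07 between libraries that share a number, and at 0.11 between PGK replicate 2 and CAG replicate 3. The deviations of the PGK libraries mirror each other, so these values are not separate checks. They cannot decide whether libraries were paired by number. The promoter CpG content, gene lists and cell type markers were not run, since no names were matched to the identifiers. Depth limits the scarcest genes: gene 13 rested on 3 CAG counts.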
